A study of Mus musculus with 4 samples.

Results

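Cyclic AMP (cAMP) is a messenger that couples G protein-coupled receptors to gene expression and excitability. The genes described here make it, break it down and pass it on, or switch off the G proteins that control it. They were taken from a list of 48 mouse gene symbols, with 1 probe set per gene, the one with the highest mean over all 4 arrays. Of the 48, 46 had a probe set annotated to that symbol alone, out of 19938 such genes. The filter on dim genes was set at the 40th percentile over the probe sets of the table, a log2 intensity of 7.38, and all 46 passed it. Prkaca, a catalytic subunit of protein kinase A, shared its probe set with Samd1, and no probe set carried the symbol Rgs10 in the annotation used here.

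The samples were ventral midbrain from male mice of 10 to 15 weeks on a C57BL/6J background, 2 arrays from wild-type mice (WT) and 2 from Rev-erba knock-out mice (RKO), which lack the clock repressor REV-ERBα encoded by Nr1d1. All mice had been entrained to 12 h of light for more than 10 days and then kept in constant darkness for 2 days before they were killed on the following day. The labels do not name the knockout allele, the clock hour of collection or the number of mice behind each array. They call the replicates biological.

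In neurons, receptors that couple to stimulatory G proteins raise cAMP through adenylyl cyclases, and receptors that couple to inhibitory ones, such as the dopamine receptor D2, lower it. Phosphodiesterases end the signal by hydrolysing cAMP or cGMP, protein kinase A (PKA) carries it to targets such as DARPP-32 and the transcription factor CREB, and RGS proteins shorten G protein signals by speeding GTP hydrolysis on the α subunit. Several of these genes (Adcy5, Gnal, Gng7, Pde10a, Pde1b, Pde7b, Ppp1r1b and Rgs9) are best known from the medium spiny neurons of the striatum. Some of these neurons send axons to the midbrain.

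Nr1d1 itself was lower in both RKO arrays, at 1259 and 1229.7 against 2897 and 3099 in WT (log2 difference -1.27, SE 0.0589, limma adjusted p = 2.44e-06). Whether its probe set lies in the deleted part is not known. One RKO array, replicate 1, differed from the rest in its median intensity over the 13587 tested genes, 539.8 against 558.6 to 558.7. Over all probe sets its median was instead the highest, 240.1 against 235.7 to 236.8. All 12 markers of dopamine neurons, the cells that define this tissue, lay above the filter. In whole tissue, fewer cells of a type and less RNA per cell cannot be told apart.

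None of the 46 genes changed between the genotypes in limma at an adjusted p under 0.05, where 1.60% of all tested genes (218 of 13587) did, 0.640% higher and 0.964% lower. The lowest adjusted p was 0.122, for Rgs20. Differences ran from -0.21 to 0.14 on the log2 scale, all smaller than the smallest difference called for any gene in this fit (0.26). Their median was -0.03, against -0.01 for all tested genes, and 28 of the 46 lay below 0 (60.9%, against 56.8% of all tested genes). All 46 of the 95% intervals lay inside a 1.5-fold change, as did 99.5% over all genes, and 39 lay inside a 1.2-fold change (82.9% of all genes). Those that reached further were Rgs20 (to 1.27-fold), Pde10a, Pde4b, Rgs3, Pde8a, Crem and Rgs12.

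**Figure D1:**
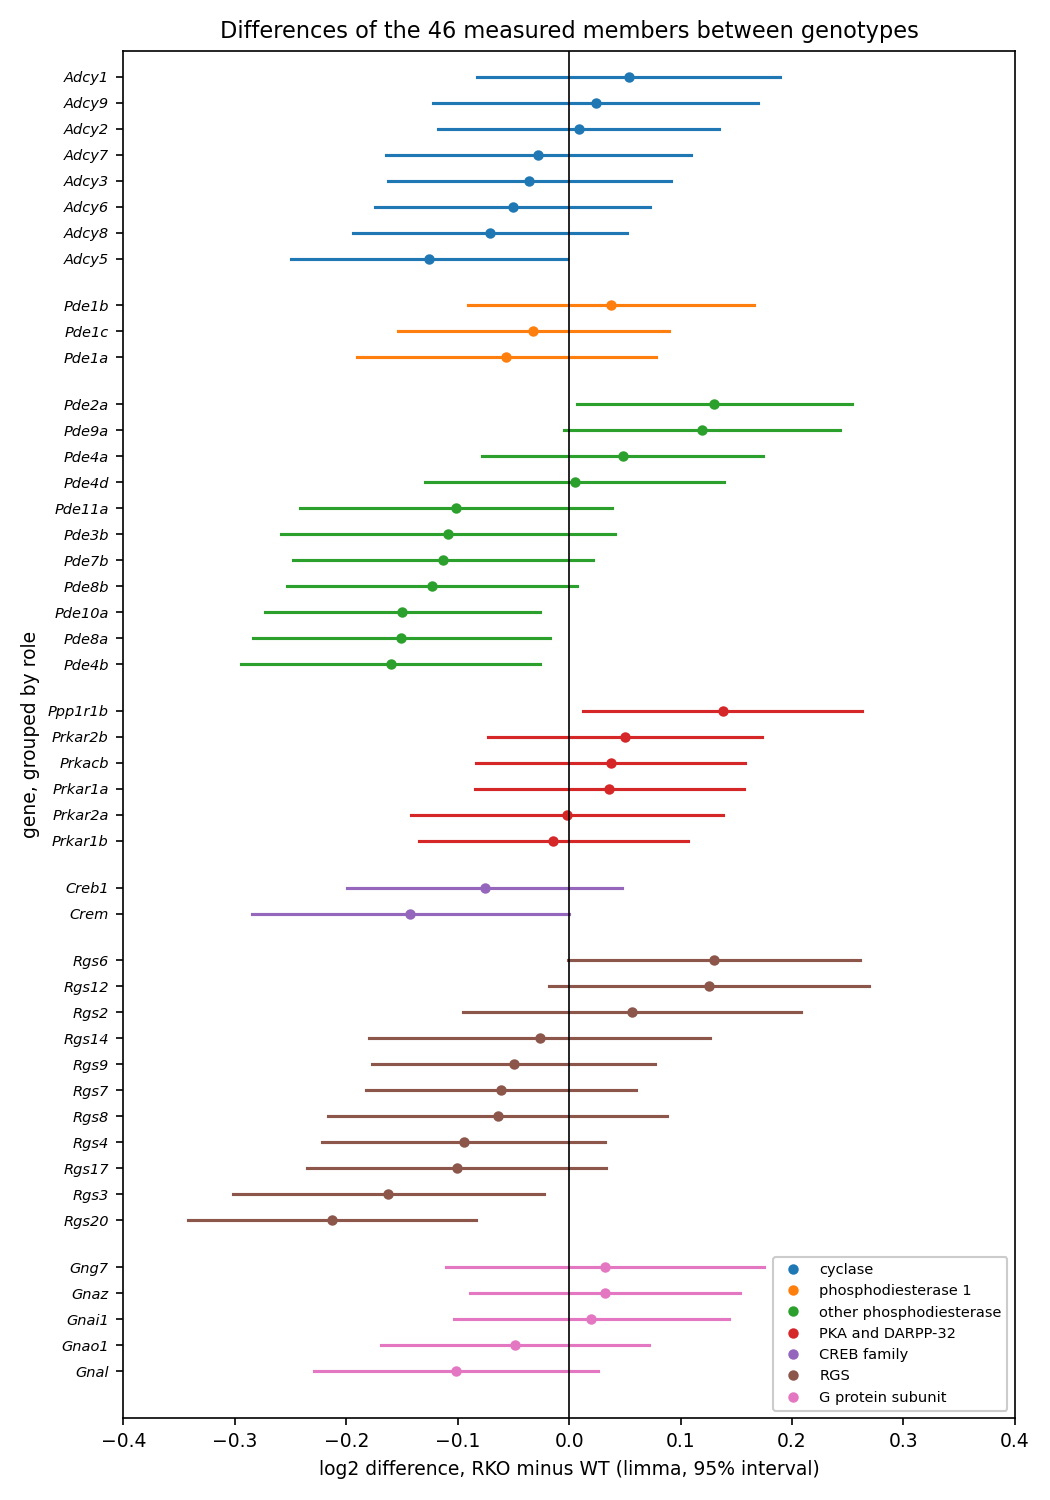
Log2 difference (RKO minus WT) of each of the 46 genes on the horizontal axis, with limma's 95% interval as a bar, grouped and coloured by role on the vertical axis. All points lie between -0.21 and 0.14, and the bars of 9 genes do not reach 0.

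At an unadjusted p under 0.05 there were 9 of the 46 genes (19.6%), beside 12.8% of all tested genes. In this group Rgs20, Pde10a, Pde4b, Rgs3, Pde8a, Adcy5 and Crem were lower in RKO (7 genes, where 6.90% of all genes were), while Ppp1r1b and Pde2a were higher (2 genes, where 5.90% were). The number moved with the array left out, from 2 without WT replicate 1 to 10 without RKO replicate 2, and was 4 without RKO replicate 1. The RKO and WT arrays did not overlap for 27 of the 46 genes (58.7%), against 41.8% of all tested genes. In 18 of them both RKO arrays lay below both WT arrays (24.6% of all genes), and in 9 above (17.2%).

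RKO replicate 1, the array with the lower median over the tested genes, held the lowest of the 4 values for 23 of the 46 genes (50%). Of all tested genes 43.6% had their lowest value there. RKO replicate 2 held the lowest value for 4 of the 46 (8.7%), beside 12.6% of all tested genes. Without RKO replicate 1 the median of the 46 genes was -0.01, against 0.01 for all tested genes. In that fit 24 of the 46 lay below 0, beside 47.1% of all tested genes. The 46 genes also varied less between arrays of the same group than genes at large. The SD of the log2 difference was 0.0755 (WT pair) and 0.0631 (RKO pair), against 0.0998 and 0.0929 over all tested genes. This comparison was not matched for brightness.

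**Figure D2:**
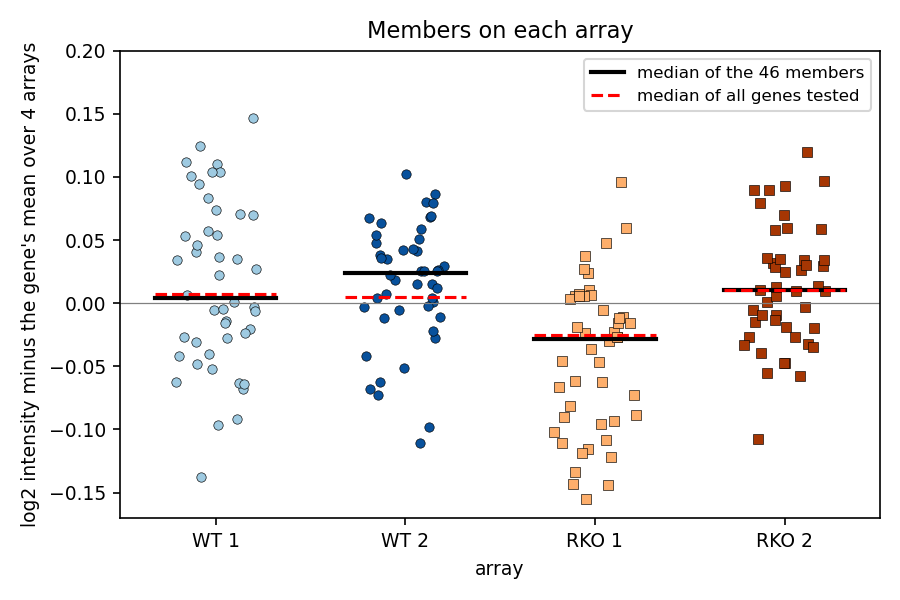
Each point is 1 of the 46 genes on 1 array, as log2 intensity minus that gene's mean over the 4 arrays, with the median of the 46 genes as a black line and that of all tested genes as a dashed red line. On RKO replicate 1 both medians lie lowest, at -0.03.

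Of the 8 adenylyl cyclases, the enzymes that make cAMP, 0 passed, 3 lay above 0 and 5 below (median -0.03). Adcy5, the main cyclase of striatal neurons, had the largest difference among them. It was measured at 988 and 996 in WT and at 890.2 and 929 in RKO. Both RKO arrays lay below both WT arrays, with a log2 difference of -0.13 (SE 0.0561, 95% interval -0.25 to -0.0020, limma adjusted p = 0.380). Adcy2, whose probe set was the brightest of the 8, showed no such split, with 1424 and 1477 in WT beside 1428 and 1490.4 in RKO. Adcy1 and Adcy8, both activated by calcium and calmodulin, stood at 0.05 and -0.07. The remaining cyclases, Adcy3, Adcy6, Adcy7 and Adcy9, lay between -0.05 and 0.02. Apart from Adcy5, only Adcy6 and Adcy8 had both RKO arrays below both WT arrays, and no cyclase had both above. The groups thus did not overlap for 37.5% of the cyclases, against 41.8% of all tested genes.

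The 3 genes of the calcium- and calmodulin-dependent phosphodiesterases lay near 0, with Pde1a at -0.06, Pde1b at 0.04 and Pde1c at -0.03. Pde1b, which degrades both cyclic nucleotides and is abundant in striatum, had the brightest probe set of the group. It gave 1526 and 1622 in WT beside 1600.2 and 1629 in RKO, and its groups overlapped.

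The other 11 phosphodiesterases held 4 of the 9 genes with an unadjusted p under 0.05 (36.4% of the 11, against 12.8% of all tested genes). After adjustment 0 passed (median -0.11, 7 below 0). Pde7b, a cAMP-specific enzyme found in striatum, had the brightest probe set of these 11. It was at 1405 and 1377 in WT and at 1231 and 1342 in RKO, with both RKO arrays below both WT arrays (-0.11, limma adjusted p = 0.495). Pde4b, a cAMP-specific enzyme inhibited by rolipram, was measured at 1442 and 1379 in WT and at 1216 and 1309.8 in RKO. Its difference was -0.16 (SE 0.0608, 95% interval -0.29 to -0.03, limma adjusted p = 0.284), and -0.11 without RKO replicate 1. Pde10a, which hydrolyses cAMP and cGMP in medium spiny neurons, had 791 and 797 in WT and 703 and 729.7 in RKO. Here the WT arrays lay close together and the RKO arrays both lay below them (-0.15, SE 0.0558, 95% interval -0.27 to -0.03, limma adjusted p = 0.278).

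Pde8a and Pde8b encode IBMX-insensitive enzymes with a high affinity for cAMP. Pde8a was at 950.2 and 887 in WT and at 807 and 848 in RKO (-0.15, SE 0.0605, limma adjusted p = 0.317). Its paralogue Pde8b lay at -0.12, with both RKO arrays below both WT arrays as well (limma adjusted p = 0.425). Pde2a, a cGMP-stimulated enzyme that links the cyclic nucleotides, lay the other way. It was at 1177 and 1181 in WT and at 1266 and 1316 in RKO (0.13, SE 0.0558, 95% interval 0.0073 to 0.25, limma adjusted p = 0.352). Pde9a, which is specific for cGMP, was next in that direction, with 648 and 677 in WT and 719.8 and 719.4 in RKO (0.12, limma adjusted p = 0.415). The remaining members were Pde3b (-0.11), Pde4a (0.05), Pde11a (-0.10) and Pde4d (0.0052), whose groups all overlapped. Pde4d had 3 probe sets, and the other 2 gave -0.15 and -0.04. The one at -0.15 was dim, with 186 and 166 in WT and 159.9 and 157 in RKO.

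The 5 measured PKA genes lay between -0.01 and 0.05. The catalytic subunit gene Prkacb stood at 0.04 and the regulatory subunit genes Prkar1a at 0.04, Prkar1b at -0.01, Prkar2a at -0.0016 and Prkar2b at 0.05. Prkar1b, the brightest of these probe sets, was at 5843 and 5937 in WT and at 5815 and 5850.0 in RKO. Its 95% interval of -0.14 to 0.11 reached to 1.10-fold. The probe set that Prkaca shares with Samd1 gave 1261 and 1267 in WT and 1217 and 1261 in RKO, and cannot be credited to either gene.

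Ppp1r1b encodes DARPP-32, which PKA turns into an inhibitor of protein phosphatase 1 and which integrates dopamine signals in striatal neurons. It was at 479 and 459.8 in WT and at 509 and 524 in RKO. Both RKO arrays lay above both WT arrays (0.14, SE 0.0566, 95% interval 0.01 to 0.26, limma adjusted p = 0.329). Of the 8 genes named above as typical of medium spiny neurons, Ppp1r1b, Pde1b (0.04) and Gng7 (0.03) lay above 0 and Adcy5, Pde10a, Pde7b, Gnal (-0.10) and Rgs9 (-0.05) below. That grouping was made with these values known.

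**Figure D3:**
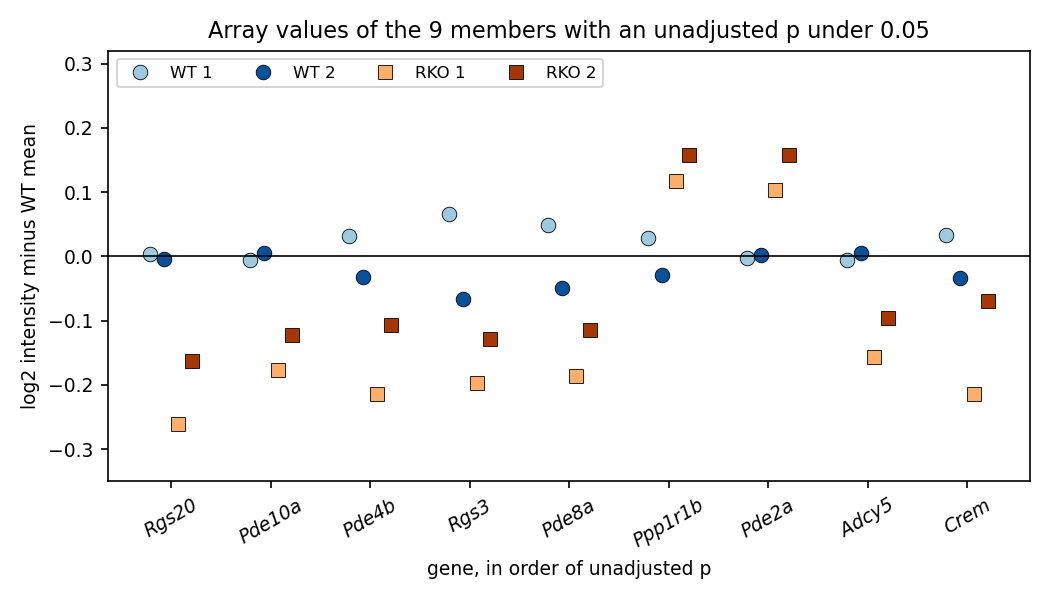
Log2 intensity minus the WT mean on each array (blue circles WT, orange squares RKO) for the 9 genes with an unadjusted p under 0.05, in order of that p. Rgs20 lies lowest, and RKO replicate 1 is the lower RKO array for all 9 genes.

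Creb1 and Crem encode transcription factors that PKA activates, and both lay below 0. Their groups did not overlap, as for 41.8% of all tested genes. Crem, which also gives rise to the inducible repressor ICER, had 234 and 224 in WT and 197 and 218 in RKO (-0.14, SE 0.0644, limma adjusted p = 0.390). Its difference was -0.07 without RKO replicate 1. Creb1 was at 927 and 924 in WT and at 861 and 895 in RKO (-0.08, limma adjusted p = 0.653). Atf1, their close relative and not one of the 48 genes, lay the other way, at 471 and 515 in WT and 534 and 524 in RKO (0.10, limma adjusted p = 0.545).

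Of the 11 measured RGS genes 0 passed, with a median of -0.06 and 8 below 0. Rgs20, a member of the RZ subfamily that acts on Gαz and Gαi, had the lowest p of all 46 genes. It was measured at 255 and 253 in WT and at 212 and 227 in RKO. The WT arrays differed little, and both RKO arrays lay below them (-0.21, SE 0.0585, 95% interval -0.34 to -0.08, limma adjusted p = 0.122). Leaving out any 1 array kept the difference between -0.26 and -0.16. Its unadjusted p stayed under 0.05 in all 11 other settings fixed at the start in which it was tested, while its adjusted p ran from 0.0662 to 0.583. A crossed replicate block, added after seeing the data, called it (limma adjusted p = 0.0282). Gnaz, which encodes Gαz, stood at 0.03, and Rgs17, another RZ member, at -0.10.

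Rgs3 was at 642 and 586 in WT and at 535 and 561 in RKO on its brighter probe set (-0.16, SE 0.0632, limma adjusted p = 0.299). Its second probe set did not show this, with 281 and 306 in WT and 291 and 294 in RKO (-0.0021). The R7 subfamily, which works with the Gβ5 subunit and includes the striatal Rgs9, has 3 genes in the set. Rgs6 was at 1048 and 1044 in WT and at 1102 and 1189 in RKO (0.13, limma adjusted p = 0.394), Rgs7, the brightest RGS probe set, stood at -0.06 (1673 and 1638 in WT, 1591 and 1582 in RKO) and Rgs9 at -0.05. Rgs11, an R7 gene outside the set, lay at -0.07 with overlapping groups. The remaining RGS genes were Rgs2 (0.06), Rgs4 (-0.09), Rgs8 (-0.06), Rgs12 (0.13) and Rgs14 (-0.03), the last of them the dimmest of the 46 genes.

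Among the G protein subunits 0 of 5 passed. Gnal encodes Gαolf, which couples dopamine D1 and adenosine receptors to Adcy5 in striatum. It was at 2197 and 2068 in WT and at 1992 and 1980.3 in RKO (-0.10, SE 0.0577, limma adjusted p = 0.520). Gnao1, an abundant Gα subunit of brain, was at 7006 and 7026 in WT and at 6759 and 6809.7 in RKO. The RKO arrays again lay below, with a log2 difference of -0.05 (limma adjusted p = 0.814). Gnai1 stood at 0.02 and Gng7, the γ subunit that accompanies Gαolf, at 0.03.

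Other genes of the pathway were looked at in the same fit. Of 135 listed genes, 107 were tested, 1 rose, 0 fell and 106 did not pass. An unadjusted p under 0.05 was found for 16 of the 107 (15.0%, against 12.8% of all tested genes), 8 in each direction. The gene that rose was Per1, a clock repressor whose transcription CREB induces. It had 590.4 and 596 in WT and 695 and 738 in RKO (0.27, SE 0.0577, limma adjusted p = 0.0439). Its call was lost whichever array was left out, with adjusted p-values of 0.0745 to 0.181, and with no filter (0.264).

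Other cyclases and phosphodiesterases (8 tested), PKA inhibitor and further kinase genes (4), anchoring proteins (11), other cAMP effectors (5), CREB relatives and coactivators (14), other G protein subunits (21), G protein modulators (10) and DARPP-32 neighbours (11) had 0 calls each in limma. At an unadjusted p under 0.05 these lists had 0, 0, 1, 1, 2, 1, 1 and 0 genes, beside 12.8% of all tested genes. Those were the anchoring protein Akap13 (-0.17), the pacemaker channel Hcn4 (-0.14), the transcription factors Creb3l1 (0.22) and Creb3l2 (-0.17), the β subunit Gnb4 (-0.16) and the receptor kinase Grk5 (-0.14).

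Of 7 other tested RGS genes 0 passed and 3 had an unadjusted p under 0.05 (42.9%, against 12.8% of all tested genes). Rgs16, an RGS gene with a daily rhythm in the suprachiasmatic nucleus, lay highest. It was at 1365 and 1549 in WT and at 1758 and 1845 in RKO (0.31, SE 0.0689, limma adjusted p = 0.0567). Both RKO arrays lay above both WT arrays, and the gene passed under 6 of 12 other settings, among them without WT replicate 2. It did not pass when any other array was left out. Rgs8, the neighbour of Rgs16 on chromosome 1, stood at -0.06 with overlapping groups. Rgs5, a pericyte gene, and its neighbour Rgs4 lay at -0.16 and -0.09. Rgs7bp, which anchors R7 proteins to the membrane, lay at -0.16.

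Among 17 tested CREB target genes 1, Per1, rose and 16 did not pass. Of these 17, 7 had an unadjusted p under 0.05 (41.2%, against 12.8% of all tested genes). They were Per1, Dusp1 (0.28), Fos (0.25), Egr1 (0.24), Fosb (0.19) and Nr4a2 (0.18) above 0 and Vgf (-0.21) below. The list median was 0.07, against -0.01 for all tested genes. Dusp1, a phosphatase of MAP kinases, had 1021 and 1060 in WT and 1180 and 1346 in RKO (limma adjusted p = 0.0856). It passed under 5 of 12 other settings. Nr4a2 is also a marker of dopamine neurons, of which 5 of 12 rose.

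CREB binds the cAMP response element (CRE), whose full form is TGACGTCA and whose short form is TGACG. Both were searched on both strands of RefSeq promoter windows of GRCm38.p6 (250 bases before to 50 after a start), and every full site also counts as a short one. Windows existed for 38 of the 48 genes (80 windows) and for 14 of the 20 CREB targets (21 windows). A full CRE occurred in 2 of the 80 windows, both of Prkar1a, or 2.50%, against 1.79% of all 32851 windows. In the CREB targets it occurred in 4 of 21 windows, those of Dusp1, Pcsk1, Scg2 and Sst. The short form was found in 20 of the 80 windows (25.0%, against 20.8% of all) and in 15 of the 21 windows of the CREB targets (71.4%), with at least 1 in each of the 14 genes. The targets were listed as CREB targets, so their share is no independent result. The stretches that hold these elements are shown for the 1 gene of the set with a full CRE, for the 4 targets with one and for Per1, with the element in capitals.
Prkar1a, chr11:109650880-109650927, plus strand: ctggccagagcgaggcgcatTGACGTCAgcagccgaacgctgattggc
Dusp1, chr17:26508588-26508635, minus strand: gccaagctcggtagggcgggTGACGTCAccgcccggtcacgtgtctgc
Pcsk1, chr13:75089759-75089806, plus strand: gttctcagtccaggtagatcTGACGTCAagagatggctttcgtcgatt
Scg2, chr1:79440067-79440114, minus strand: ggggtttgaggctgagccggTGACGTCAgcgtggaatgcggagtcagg
Sst, chr16:23890865-23890912, minus strand: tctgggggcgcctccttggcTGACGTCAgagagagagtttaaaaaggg
Per1, chr11:69100000-69100044, plus strand: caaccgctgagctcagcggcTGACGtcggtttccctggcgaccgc

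Per1 has a short element in another window too, which is not shown. Of the 6 genes shown, Per1 rose (0.27) and the other 5 did not pass, with Prkar1a at 0.04, Dusp1 at 0.28, Pcsk1 at -0.11, Scg2 at -0.01 and Sst at -0.10. Elements bound by REV-ERBα were searched in the same windows as the cores TAGGTCA and TGGGTCA. The first was in 0 of the 80 windows (2.61% of all windows) and the second in 3, those of Adcy3, Pde2a and Prkaca (3.98% of all). The E-box CACGTG, which BMAL1 and CLOCK bind, was in 8 of the 80 windows, or 10.0% (7.15% of all). Those were windows of Adcy1, Gnai1, Gng7, Prkaca, Prkar1a, Prkar1b, Prkar2b and Rgs7. Among the CREB targets it was in 3 of 21 windows (14.3%), those of Crebrf, Dusp1 and Per1. The E-box of Per1 lies in its window that is not shown, and the stretch shown for Dusp1 holds one in small letters. A match in a window is not a site in use.

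Among the striatal markers were 3 receptors that act on cAMP, a choice made after their values were seen. Drd2, the inhibitory dopamine receptor, rose from 1420.3 and 1382 in WT to 1706 and 1715 in RKO (0.29, SE 0.0552, limma adjusted p = 0.0268). Its call was lost whichever array was left out, with adjusted p-values of 0.0579 to 0.163. The stimulatory receptor Drd1 was at 329.98 and 330.4 in WT and 353 and 327 in RKO, with overlapping groups (0.04), and the constitutively active Gpr6 stood at 0.07.

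Markers of neighbouring tissue and of other cells moved between the groups beside these values. Of 15 tested striatal markers 1 rose (Drd2, which dopamine neurons also express), Tac1 fell (-0.35) and 13 did not pass. Their summed intensity was 11369 to 11412 in WT and 10835 to 11138 in RKO. Of 11 thalamic markers Prkcd (-0.57) and Rora (-0.36) fell, 0 rose and 9 did not pass, with sums of 23429 to 23704 in WT and 20382 to 20887 in RKO. Leptomeningeal markers fell in 6 of 11 cases (sums of 11724 to 12074 in WT and 9751 to 9786 in RKO), and dopamine neuron markers rose in 5 of 12 (16903 to 17277 in WT and 20617 to 21195 in RKO). Lum of the leptomeninges lay below the filter. Of 7 hypothalamic markers the neuropeptide genes Pmch (-1.14) and Hcrt (-0.52) fell and 5 did not pass (sums of 2127 to 2234 in WT and 1781 to 1800.3 in RKO). Further calls were Gata3 (0.46) of 8 GABA neuron markers, which rose, and Slc17a7 (-0.34) of 8 cortical and hippocampal, Gfap (-0.51) and Aldh1l1 (-0.31) of 8 astrocyte and Opalin (-0.30) of 7 oligodendrocyte markers, which fell. The astrocyte and the cortical and hippocampal lists went both ways. At an unadjusted p under 0.05, 2 astrocyte markers lay higher and 4 lower, and 2 cortical and hippocampal ones higher and 3 lower. Of all tested genes, 5.90% lay higher and 6.90% lower at that p. The astrocyte sums overlapped, at 17019 to 17029 in WT and 16684 to 17045 in RKO. Of 5 microglial and 8 vascular markers limma called 0, with 0 and 3 at an unadjusted p under 0.05, beside 12.8% of all tested genes. With 1 array left out, Tac1 kept its call only without WT replicate 2, Rora lost its call without RKO replicate 1, the dopamine neuron markers called numbered 1 (Th, without RKO replicate 2) to 4, and the leptomeningeal ones 4 (without either RKO array) to 6. Without RKO replicate 2 the call of Hcrt was lost. Opalin passed in 1 of the 4 fits on 3 arrays, that without WT replicate 2. Leaving out RKO replicate 1 ended the calls of Slc17a7 and Aldh1l1, as did leaving out WT replicate 2 for Slc17a7 and WT replicate 1 for Aldh1l1. With no filter, where limma called 0.155% of all genes, only Th, Prkcd, Pmch, Ogn and Slc13a4 of all these markers kept their calls. The part of these tissues in the small differences of the cAMP genes was not tested.

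**Figure D4:**
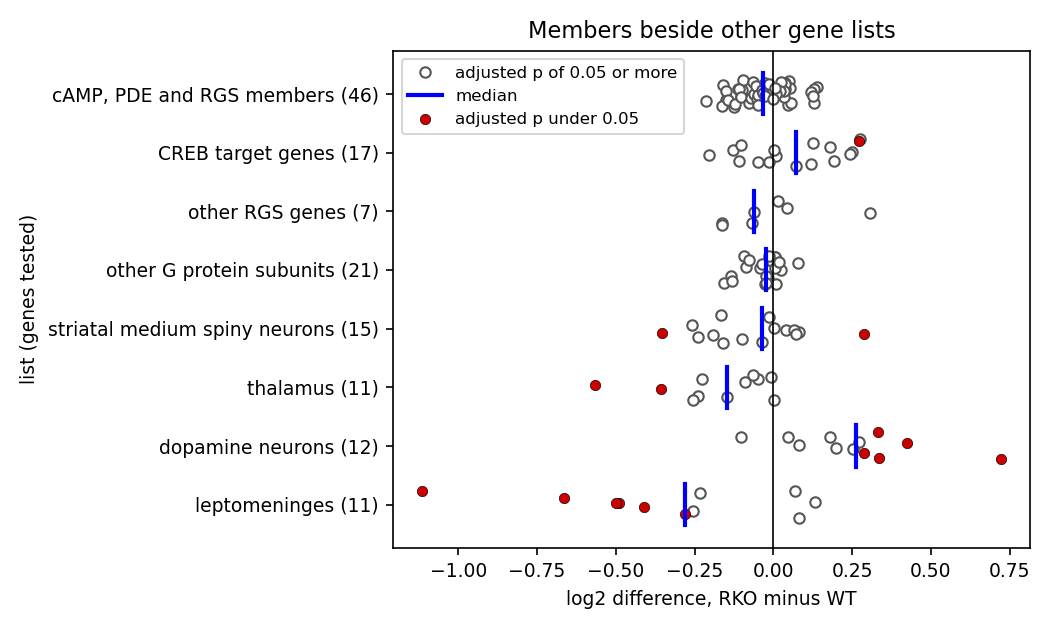
Log2 difference (RKO minus WT) of every tested gene, in rows for the 46 cAMP, phosphodiesterase and RGS genes, 3 other pathway lists and 4 marker lists, with red points for an adjusted p under 0.05 and a blue line at each median. The 46 genes hold no red point and lie between -0.21 and 0.14, while the dopamine neuron row holds 5 red points and the leptomeninges row 6.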

How the data were processed

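Per the labels' protocols, biotinylated cRNA was made from 1 µg of total RNA per array. The values the authors deposited are normalized intensities of 35556 probe sets on each array and are linear, not logarithmic. The submitters' processing notes name GCOS and RMA with no version or settings. Here intensities were turned to log2 with no pseudocount, and the probe set with the highest mean was kept for each symbol of the platform annotation, which can be old (21789 probe sets had 1 symbol, 1621 several and 12146 none here). Genes with a mean under the table's 40th percentile were left out. The 13587 remaining genes were fitted together in R 4.3.3 with limma 3.58.1, lmFit then eBayes (2 RKO against 2 WT arrays, no covariate, 8.73 prior and 2 residual degrees of freedom). Calls are two-sided with a Benjamini-Hochberg adjusted p under 0.05 over all genes. The fit was tested on simulated data. An exact permutation test of 2 against 2 arrays cannot go below p = 0.333, so none was run, and the number of arrays limits the precision. Brightness of different probe sets is not a measure of relative transcript level. Whether arrays of a group came from separate mice is stated only by the word biological, so p-values rest on the spread between these arrays. In limma each gene's own spread is drawn towards that of all tested genes, here with more prior than residual degrees of freedom.

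The genes and lists were chosen with earlier results of these data known. Genes were named by rule: every gene of the set once, with array values for those with an unadjusted p under 0.05 or a call under an alternative and for the brightest of each role, and of other lists the called ones. Rgs6, Pde9a, Gnal, Rgs16, Dusp1, Drd1, Gpr6 and the uncalled genes of other lists were picked after their values were seen. Promoters were to be shown for called genes of the set only; with 0 calls, those shown were chosen later. The labels do not say whether the replicate numbers mark a shared litter, batch or day, and the main fit did not use them. Replicate 1 minus replicate 2 correlated at -0.114 between WT and RKO over all tested genes. With 2 arrays per group this value cannot exclude a pairing.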

Additional observations from a re-analysis of the deposited data

How the results depend on the processing

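The 12 other settings fixed at the start were no filter, a filter at the 60th percentile, median centring, quantile normalization, a pseudocount of 32, an intensity trend, the mean over probe sets, the replicate number as a block, and each array left out. Under each of them limma called 0 of the 46 genes (39 with the filter at the 60th percentile), with 2 to 12 at an unadjusted p under 0.05. Nr1d1 was called lower in all 12. Of the 107 other pathway genes, 1 with the main settings, the calls numbered 0 with no filter, 3 with the filter at the 60th percentile, 5 with median centring, 3 with the pseudocount, 7 with the intensity trend and 0 to 2 with 1 array left out. With the replicate block 3 other pathway genes were called, and 0 of the 46. A crossed replicate block, added after seeing the data because the replicate numbers correlated at -0.114, called 1 of the 46 genes (Rgs20) and 7 other pathway genes. It leaves 1 residual degree of freedom, and it called 696 of the 13587 genes. Over all genes, limma called 31 of 19938 (0.155%) with no filter and 499 of 13587 (3.67%) with the intensity trend, against 218 with the main settings. The cause of these shifts was not tested. With the main settings the smallest difference called for any gene was 0.26 on the log2 scale, while the intensity trend also called smaller ones, such as Rgs7bp (-0.16 with the main settings). Leaving out an array leaves 1 sample in its group, which is assumed to vary like the others.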
